A study of Mus musculus with 100 samples.

Results

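The regions described here are ChIP-seq peaks at the ends of transcripts in mouse bone marrow-derived macrophages and in bone marrow cells cultured toward osteoclasts. They are the rows of the 15 deposited peak tables whose annotation places the peak at a transcription termination site (TTS) and whose centre lies more than 2000 bp from the nearest transcription start site (TSS). The rule selected 7575 of 610301 rows, and every comparison below sets them beside the 238088 rows that lie in introns of the same tables at more than 2000 bp from a TSS. The number of TTS peaks ran from 198 in the H3K27ac table of WT and NKO cells to 945 in the p300 table of vehicle and KLA treatment. Rows of neighbouring tables often cover the same site, and merging centres within 500 bp of each other gave 1790 loci.

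The cells came from young adult C57BL/6 mice, and each group held 2 libraries from separate biological replicates. Wild-type (WT) macrophages treated with vehicle (Veh) or with KLA, the TLR4 agonist Kdo2 lipid A (6 h, in the libraries whose labels state it), were profiled for NCoR, HDAC3, p65, Fosl2, PU.1, PGC1b, ERK1 and p300. The vehicle libraries of p300 are labelled as KLA at 0 h. H3K27ac was profiled with Veh and KLA in WT and NKO cells, where WT stands for NCoR flox/flox and NKO for NCoR flox/flox, LysMCre, in PGC1b flox/flox and PGC1b flox/flox, LysMCre cells, and in WT cells that received DMSO with Veh, DMSO with KLA, or the HDAC3 inhibitor RGFP966 with KLA. PGC1b was profiled a second time in WT cells with DMSO and Veh, with DMSO and KLA, or with KLA and the ERK inhibitor LY3214996 (ERKi), and NCoR with KLA and ERKi. ERK1 and p300 were profiled at day 0 and day 4 in WT bone marrow cells given M-CSF and then RANKL, the cytokine that drives osteoclast differentiation. LysM-Cre acts in myeloid cells, so the deletions were made there and not in single clones.

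RNA polymerase II cleaves and releases a transcript at its poly(A) site and then continues downstream before it terminates. The DNA just past a gene's end can be open and can hold enhancers, and NF-kB, AP-1 and PU.1 motifs recruit factors there as they do in introns. NCoR is a scaffold best known for holding the histone deacetylase HDAC3 in corepressor complexes, PGC1b is a transcriptional coactivator, p300 is a histone acetyltransferase, and p65 (RelA) is the NF-kB subunit that enters the nucleus after TLR4 signalling.

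The motif matches nearest to the centre of TTS peaks of some of the genes described below show what such a site looks like. They were read from the reference genome (RefSeq, GRCm38.p6, which is mm10), from peaks that overlapped no annotated exon, with the match in capitals and each sequence on the strand given. The NF-kB letters searched on both strands were GGG, any 2 bases, TT, any base and CC, and the p65 peaks shown lay between 211 bp and 937 bp past the transcript end.
Tnf, chr17:35199158-35199187, minus: cctggggcatGGGAATTTCCcactctggga
Junb, chr8:84976647-84976676, minus: gagtgcgccgGGGCTTTCCCcgctgacgtt
Art2a, chr7:101551663-101551692, plus: tttgacataaGGGAGTTTCCacttatgtca
Dnajc22, chr15:99105627-99105656, minus: tatttcccccGGGCTTTCCCcagcttgcct
Socs1, chr16:10783156-10783185, plus: cagaggcaaaGGGAATTGCCcaagccacca
Rcn3, chr7:45082596-45082625, minus: ggacgtttgaGGGCGTTCCCagaggccgag

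The first 5 of these peaks gained p65 with KLA and the last lost it, as described below. The AP-1 letters, TGANTCA, were searched in the same way in Fosl2 peaks, and the PU.1 letters, GAGGAAGT, in PU.1 peaks.
Spef1l (AP-1), chr7:139971633-139971662, plus: tgactcgcttcTGACTCAcagaggaaactg
Zfp36l2 (AP-1), chr17:84183626-84183655, plus: tgatcactgggTGACTCAcaggccggccac
Socs3 (AP-1), chr11:117965885-117965914, plus: ctggtcagaacTGAATCAgacggcaggaat
Cebpd (PU.1), chr16:15890057-15890086, plus: gacaatatgcaGAGGAAGTactgctcttcc
Rxra (PU.1), chr2:27763637-27763666, minus: cctctgtgcctGAGGAAGTgggaacagcag

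At Socs3 Fosl2 measured 4.23 and 0 with Veh and 58.2 and 85.3 with KLA and was called higher, though not without either Veh library (adjusted p up to 0.40, edgeR). At Rxra PU.1 measured 98.3 and 118 with Veh and 36.6 and 40.8 with KLA and was called lower. Spef1l held the strongest Fosl2 TTS peak, at 391 and 314 with Veh and 272 and 408 with KLA, and Cebpd a PU.1 peak of 320 and 340 with Veh and 219 and 209 with KLA. Neither of these was called.

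In the 200 bp around the peak centre, the NF-kB letters were present in 6.83% of TTS peaks and 7.85% of intron peaks of p65. The AP-1 letters were present in 29.1% of TTS peaks and 30.7% of intron peaks of Fosl2, and the PU.1 letters in 19% and 19.3% of the PU.1 peaks. The AP-1 letters were less frequent at TTS peaks than at intron peaks in the p300 tables (19.9% against 24.8% with Veh and KLA, and 32.2% against 42.3% at day 0 and day 4) and in the PGC1b tables (14.2% against 19.6%, and 13.1% against 20.8%). The poly(A) signal letters AATAAA were present in 19.5% of TTS peaks and 19.7% of intron peaks of PGC1b. These shares are descriptions and were not tested.

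Library totals ran from 4.3 M to 21.5 M tags (M, 1e6) over the 70 libraries used, and the rows of the tables held 2.79% to 52.8% of the tags. Cell type markers were looked up in 4 tables, the 3 of H3K27ac and that of p300 at day 0 and day 4. All 7 macrophage marker genes had a promoter row in each of these except that of H3K27ac in WT and NKO cells, where 4 had one. No promoter row of the T cell, B cell, fibroblast or epithelial markers was present in these 4. Of 4 neutrophil markers, 1 had a promoter row in 3 of them. Of 4 osteoclast markers, 3 had one in the p300 table, 1 in the H3K27ac table of WT and NKO cells and 0 in the others. The 2nd ERK1 library of day 4 is described in its label as another replicate with another date. Tags are given per 10 M tags of the library, and a peak is called higher or lower where the adjusted p (edgeR quasi-likelihood test over all rows of the table, Benjamini-Hochberg) was below 0.05 and the fold above 2. With 2 libraries against 2, an exact permutation test of a single peak cannot give a p below 0.33, so single peaks rest on the fit across all rows.

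The TTS peaks were spread over the first 1000 bp past the transcript end. Of the members, 7509 could be placed on the end of their named transcript, and the median distance from that end to the peak centre was 497 bp (quartiles 235 and 745 bp). The centre lay downstream of the end for 93.7%, and 25.5% of the peaks overlapped an exon. The median transcript was 14.2 kb long, 12.7% of the transcripts were noncoding, and 12.3% of the peaks lay inside another gene. For 53.5% the nearest TSS was that of the same gene, and for 45.7% the next gene ran in the opposite direction, toward the peak. HOMER, the annotation program, assigns a peak to a TTS from 100 bp before to 1000 bp after the end, which sets the downstream share, and 7388 of the placed centres fell in that window.

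**Figure D1:**
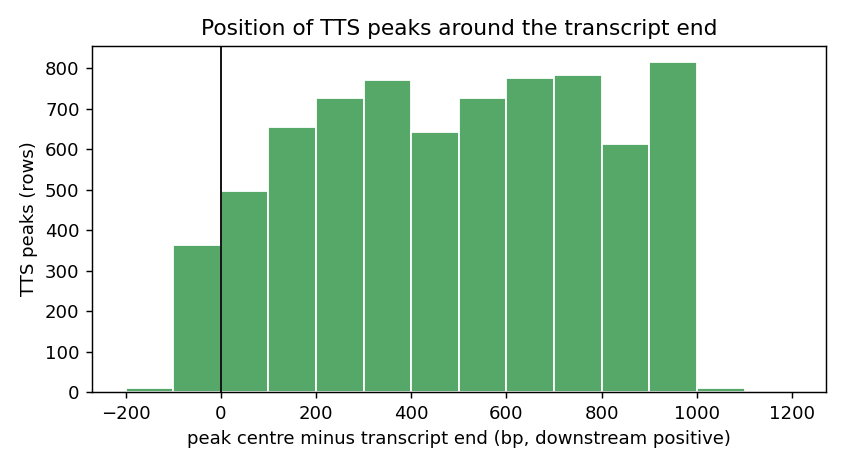
Number of TTS peaks of all tables in 100-bp bins of the distance from the transcript end to the peak centre (x axis, bp, positive downstream). The peaks spread over the whole annotation window, from 100 bp before to 1000 bp after the end, with the median at 497 bp.

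Peaks were denser at transcript ends than in introns in every table. The TTS windows covered 23.5 Mb and the introns 918 Mb. PGC1b had 31.3 TTS peaks and 19.7 intron peaks per Mb, a ratio of 1.59, and 1.65 in the table with ERKi. The ratio was 1.39 for ERK1 with Veh and KLA and 1.53 at day 0 and day 4, and p300 gave 1.29 (40.2 against 31.1 per Mb) and 1.32. It was nearer to 1 for PU.1 (1.18), HDAC3 (1.12), NCoR (1.09), p65 (1.08) and Fosl2 (1.07). Tables of 1 factor share libraries or conditions, and these ratios carry no test.

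**Figure D2:**
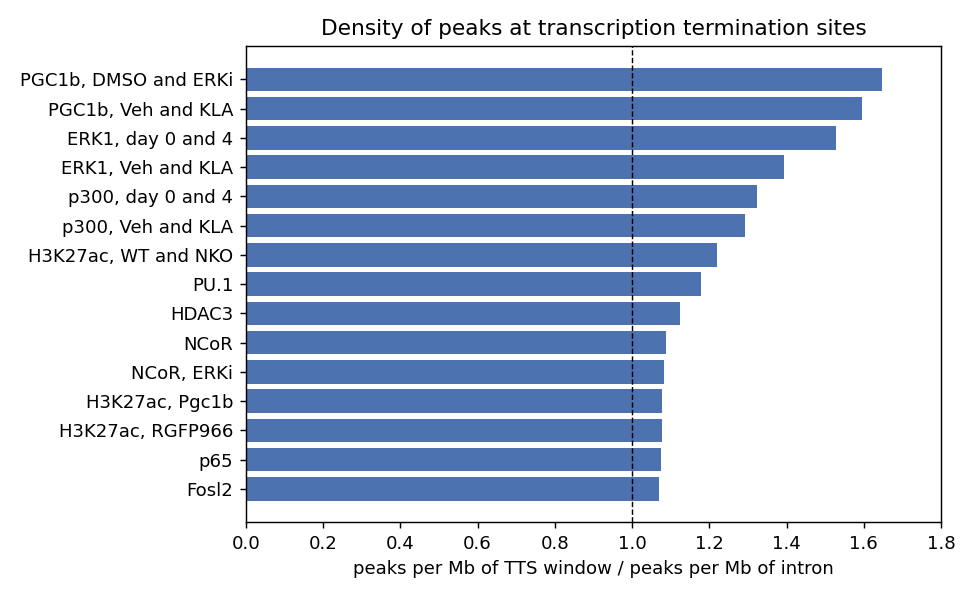
Ratio of TTS peaks per Mb to intron peaks per Mb in each of the 15 tables (bars, from 0, dashed line at 1). PGC1b and ERK1 stand highest, at 1.39 to 1.65, and Fosl2, p65 and the H3K27ac tables of 9497 intron rows lowest, at 1.07 to 1.08.

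The 1790 loci lay at the ends of 1711 genes. Of them 622 were found in 1 table, 216 in 10 or more tables and 38 in all 15. For H3K27ac, the table with Pgc1b deletion and that with RGFP966 hold the same regions, so a locus in one was counted in both. Those 38 held 618 of the members, and among them were the ends of Klf6 and Cebpd (transcription factors of the macrophage response), Nfkbia (the NF-kB inhibitor IkBa), Slamf7, Plekho2 and Rps9. By gene list, 24 of 44 cytokines and chemokines had a TTS peak at their own end or as the gene with the nearest TSS, 20 of 35 interferon-stimulated genes, 17 of 36 immediate early genes and ERK feedback regulators, 16 of 30 macrophage lineage genes, 8 of 14 NF-kB subunits and inhibitors, 8 of 23 LXR targets and lipid genes, 5 of 19 SOCS and STAT genes and 4 of 22 osteoclast genes. Of 17 genes listed for the nuclear receptor corepressor complex, 1 had such a peak, Rxra, which encodes the partner of nuclear receptors. Some of these peaks therefore lie at another gene's end, such as that of Cdhr5 for Irf7, and the counts by list below include them.

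TTS peaks were about as strong as intron peaks in the mean over libraries. The ratio of their median tags, averaged over the libraries of a table, lay between 0.92 and 1.07 in 13 tables. Single libraries varied more in the tables of Veh and KLA. Their log2 difference ran from −0.33 to 0.15 for p300, −0.26 to 0.06 for ERK1, −0.04 to 0.25 for p65 and −0.12 to 0.24 for PGC1b. In the H3K27ac table of WT and NKO cells the TTS median was higher in 8 of 8 libraries, by 0.31 ± 0.13 on the log2 scale (SD over libraries). In the p300 table of day 0 and day 4 the difference was 0.41 ± 0.54, since the day 0 libraries had medians of 16.3 and 12.8 tags per 10 M at TTS peaks against 9.67 and 6.39 at intron peaks, while the day 4 libraries had 36.7 and 36.3 against 38.1 and 37.4.

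The share of peaks with another factor's peak within 500 bp depended on the factors compared. Beside PGC1b peaks of the Veh and KLA table, NCoR was found at 43.3% of TTS peaks and 62.5% of intron peaks, HDAC3 at 43.1% and 60.7%, p65 at 40.4% and 58.9%, and p300 at 50.2% and 66.3%. Beside ERK1 peaks of the Veh and KLA table NCoR was found at 70.0% and 85.6%, and p65 at 66.1% and 80.0%, while beside those of day 0 and day 4 PGC1b was found at 77.0% of both and p300 of the same days at 60.6% and 56.7%. Beside p300 peaks with Veh and KLA, NCoR was found at 56.7% and 65.6%, and p65 at 51.7% and 63.6%. Beside NCoR peaks the shares were close to those of introns, 81.2% and 79.1% for HDAC3 and 84.1% and 82.2% for p300. These shares were not tested.

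KLA moved p300 in both directions at transcript ends. Of 945 TTS peaks, 331 were called higher and 232 lower, or 35.0% and 24.6%, against 44.6% and 11.7% of the intron peaks (all rows of the table, 54.9% called in either direction, 42.1% higher and 12.9% lower). The median log2 change was 0.23 at TTS peaks, 0.81 at intron peaks and 0.65 over all rows. The TTS median lay below the intron median by −0.58 ± 0.05 (SD over the 4 pairs of a Veh and a KLA library, range −0.64 to −0.54), with the same sign in all 4 pairs. The pairs share libraries, here and below, so this SD is not one of independent values. Scaling by TMM (trimmed mean of M-values), which lowers every p300 change by −0.52, gave 263 higher and 337 lower, with 35.7% of TTS peaks lower against 21.1% of intron peaks. Peaks listed as found with Veh alone made up 311 of the 945 (32.9%), against 16.8% of the intron peaks.

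Rows of other tables lay beside many of the p300 peaks that changed. Of the 331 that rose, 217 had a p65 row within 500 bp, and 194 of those were called higher and 0 lower, where 57.0% of all p65 rows were higher. An HDAC3 row lay beside 190, of which 121 were higher and 3 lower (all rows 27.5% and 11.3%), and an NCoR row beside 204, of which 106 were higher and 5 lower (all rows 23.4% and 16.7%). PGC1b was higher at 77 and lower at 2 of 115 (all rows 16.4% and 6.35%) and ERK1 at 45 and 0 of 111 (10.3% and 2.53%). In the DMSO experiment PGC1b was higher at 94 and lower at 0 of 166 (all rows 16.4% and 1.23%). Fosl2 was higher at 42 and lower at 1 of 120 (all rows 11.4% and 4.19%) and PU.1 at 25 and 1 of 94 (4.53% and 21.7%). H3K27ac was higher at 7 and lower at 0 of 31 in NCoR flox/flox cells (all rows 6.49% and 3.72%) and at 0 and 0 of 31 in NKO cells (2.75% and 7.96%). It was higher at 5 and lower at 1 of 24 with DMSO (all rows 6.73% and 28.1%). In PGC1b flox/flox cells it was higher at 5 and lower at 1 of 23 (5.22% and 25.6%), and with LysMCre at 4 and 3 of 23 (4.18% and 32.5%). Most H3K27ac rows there were not called. Of the 232 p300 peaks that fell, 75 had an NCoR row (0 higher, 52 lower), 91 a PU.1 row (1 higher, 48 lower) and 56 a p65 row (0 higher, 18 lower), where all rows had 16.7%, 21.7% and 5.43% lower. An HDAC3 row lay beside 68 (0 higher, 41 lower), a PGC1b row beside 75 (1 and 31), a Fosl2 row beside 49 (0 and 17) and an ERK1 row beside 43 (0 and 3). Over all rows 11.3% were lower for HDAC3, 6.35% for PGC1b, 4.19% for Fosl2 and 2.53% for ERK1. PGC1b in the DMSO experiment was higher at 0 and lower at 7 of 76 (all rows 1.23% lower). H3K27ac with DMSO was higher at 1 and lower at 27 of 42, where 28.1% of all rows were lower. It was higher at 2 and lower at 3 of 21 in NCoR flox/flox cells (all rows 3.72% lower). In NKO cells it was higher at 0 and lower at 4 of 21 (7.96%). In PGC1b flox/flox cells it was higher at 1 and lower at 20 of 41 (25.6%). With LysMCre it was higher at 0 and lower at 26 of 41 (32.5%). These tables come from separate libraries, and the overlaps are counts without a test.

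The gene's own promoter followed p300 at its end only in part. Over 573 TTS peaks whose gene had a promoter row in the p300 table, Pearson's r between both log2 changes was 0.36 and Spearman's rho 0.32, across genes that are not independent replicates. Of 189 such peaks that rose, the promoter was called higher at 67 and lower at 22, and of 155 that fell, it was called lower at 48. Without regard to calls, the promoter change was above 0 at 105 of the 189 and below 0 at 115 of the 155. The median change of the promoters beside all 573 peaks was −0.16. The share of all promoter rows called was not counted. Peaks inside another gene were lower in 36.6% of 131 cases and the remaining ones in 22.6% of 807. At the edge of the rule, p300 TTS rows within 500 bp just outside the 2000-bp distance had a median of −0.17 (51 rows) and those within 500 bp just inside it 0.83 (54 rows), while p65 had 1.37 (35 rows) and 1.35 (34 rows).

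**Figure D3:**
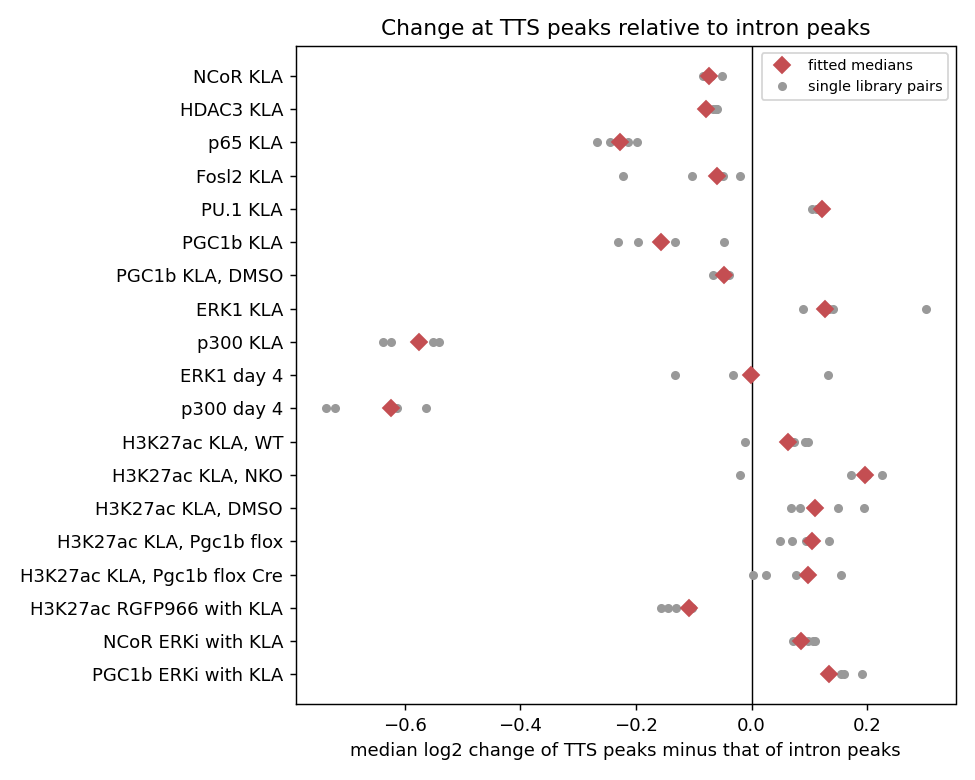
Median log2 change at TTS peaks minus that at intron peaks in each of the 19 comparisons (x axis, log2 units, diamonds from the fit, grey points the 4 library pairs). p300 stands apart, at −0.58 with KLA and −0.62 at day 4, and the other comparisons lie between −0.23 and 0.20.

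p65 gained tags at most of its TTS peaks. It was higher at 327 of 586 TTS peaks, or 55.8%, and lower at 35 (all rows 62.4% called in either direction, 57.0% higher and 5.43% lower). Of the 586, 396 (67.6%) were peaks found with KLA alone and 83 (14.2%) with Veh alone, so the set itself leans toward gains. The median rise was 1.41 log2 units at TTS peaks and 1.64 at intron peaks, a difference of −0.23 ± 0.03. TMM scaling takes 1.22 log2 units off every p65 change and gave 163 higher and 125 lower, so the excess of gains at p65 peaks depends on scaling by library totals. Without KLA replicate 1 the calls numbered 202 and without KLA replicate 2 they numbered 178.

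NCoR and HDAC3 moved both ways and much as in introns. NCoR was higher at 146 and lower at 127 of 629 TTS peaks (all rows 40.1% called, 23.4% higher and 16.7% lower), and the TTS median differed from the intron median by −0.07 ± 0.01. HDAC3 was higher at 159 and lower at 74 of 560 (all rows 38.8%, 27.5% and 11.3%), and TMM scaling gave 142 and 112. The median log2 change of HDAC3 at TTS peaks was 0.56 without KLA replicate 1 and −0.04 without KLA replicate 2, so its rise rested on KLA replicate 2. Its median difference was −0.08 from the fit, and −0.067 to −0.059 over the library pairs. Of the 560, 48.6% were found with KLA alone and 9.82% with Veh alone, against 48.4% and 7.90% of the intron peaks. Calls of NCoR fell to 128 and 122 without KLA replicate 1 or 2, and those of HDAC3 to 96 and 99 without Veh replicate 1 or 2.

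Fosl2 and PU.1 changed at fewer ends. Fosl2, an AP-1 subunit, was higher at 40 and lower at 23 of 361 TTS peaks (all rows 15.6%, 11.4% and 4.19%). Its calls numbered 0 without either Veh library, 129 without KLA replicate 1 and 160 without KLA replicate 2. The median log2 change of Fosl2 at TTS peaks was 0.25 without KLA replicate 1 and −0.87 without KLA replicate 2. Its sign therefore depended on the KLA library kept. PU.1, the factor that defines the macrophage lineage, was higher at 27 and lower at 118 of 633 (all rows 26.3%, 4.53% and 21.7%). Its median lay 0.12 log2 units above the intron median in the fit, and 0.10 to 0.11 above it over the library pairs. TMM scaling raises every PU.1 change by 0.42 and gave 58 higher and 48 lower, so the excess of losses depends on the scaling. Of the PU.1 TTS peaks, 64.8% were found with Veh alone and 2.53% with KLA alone, so the set itself leans toward losses.

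PGC1b was higher at 109 and lower at 54 of 737 TTS peaks (all rows 22.8%, 16.4% and 6.35%), with a median of −0.03 against 0.13 in introns, a difference of −0.16 ± 0.08. In the DMSO experiment it was higher at 136 and lower at 15 of 865 (all rows 17.6%, 16.4% and 1.23%), and TMM scaling gave 83 and 39. Without Veh replicate 1 or 2 the calls fell to 72 and 74 in the first experiment and to 79 and 95 in the second. ERK1 was higher at 72 and lower at 10 of 387 TTS peaks (all rows 12.9%, 10.3% and 2.53%), and the 18.6% that were higher stood beside 11.3% of the intron peaks. The ERK1 median was 0.13 ± 0.09 above that of introns, with all 4 library pairs between 0.09 and 0.30. Without KLA replicate 1 or 2 the ERK1 calls fell to 33 in either case, with 7.49% and 8.27% higher at TTS peaks against 2.44% and 3.14% in introns. ERK1 was higher at 25.6% of 86 ends of transcripts under 5 kb, 16.7% of 156 from 5 to 20 kb and 16.2% of 142 above that.

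H3K27ac, the mark that p300 writes and HDAC3 removes, fell more often than it rose with KLA in the DMSO and Pgc1b experiments when scaled by totals. It was higher at 12 and lower at 72 of 208 TTS peaks with DMSO (all rows 34.8%, 6.73% and 28.1%), at 8 and 51 of 202 in PGC1b flox/flox cells (30.8%, 5.22% and 25.6%) and at 6 and 68 of 202 in PGC1b flox/flox, LysMCre cells (36.7%, 4.18% and 32.5%). The TTS medians lay 0.11 ± 0.06, 0.10 ± 0.04 and 0.10 ± 0.07 above those of introns. TMM scaling gave 28 and 39, 18 and 28, and 14 and 32. In NCoR flox/flox cells it was higher at 14 and lower at 6 of 135 (10.2%, 6.49% and 3.72%), and in NKO cells at 2 and 16 of 135 (10.7%, 2.75% and 7.96%), or 6 and 11 with TMM. Without Veh replicate 1 the calls in NCoR flox/flox cells fell to 10 and without Veh replicate 2 to 13, and those in NKO cells fell to 8 without Veh replicate 1 and to 7 without KLA replicate 1. The difference between genotypes was not tested.

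**Figure D4:**
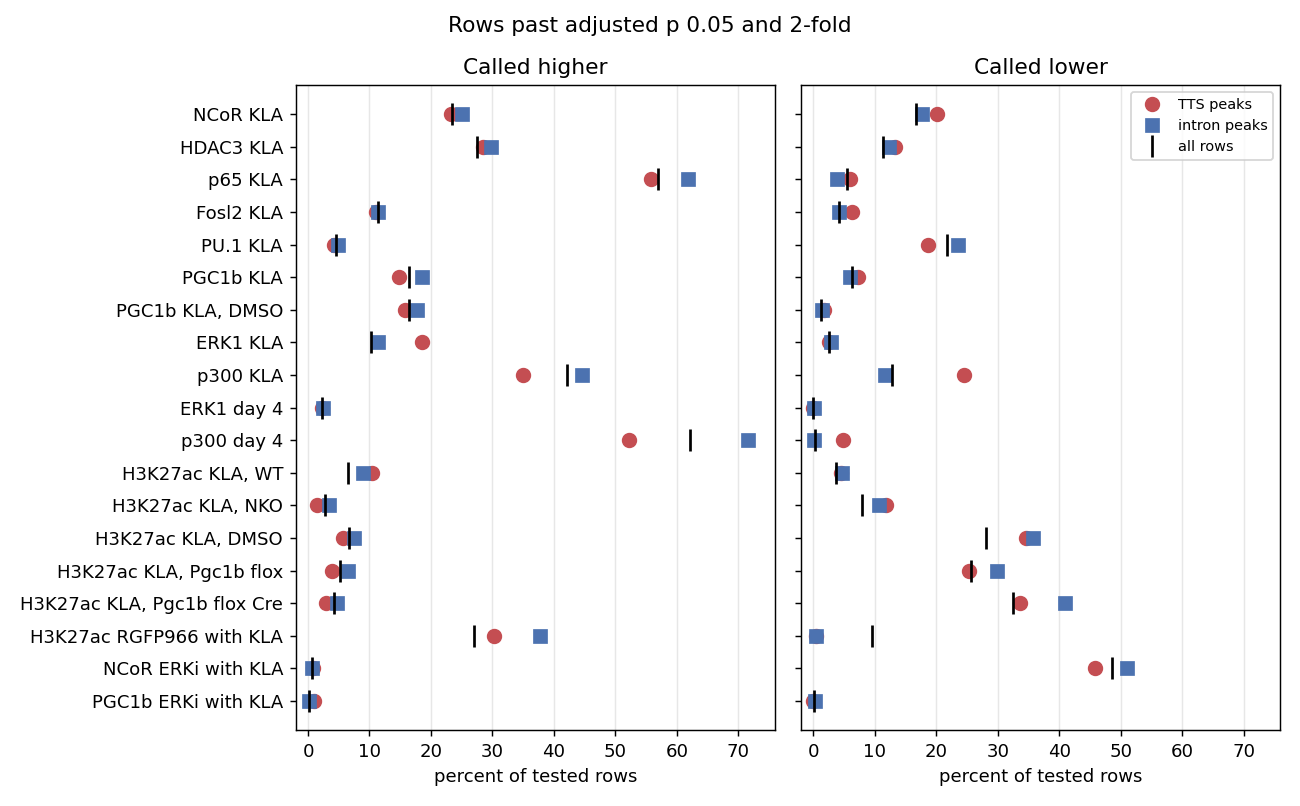
Percent of TTS peaks, intron peaks and all rows tested (circles, squares and bars) that were called higher (left panel) or lower (right panel) in each of the 19 comparisons, with scaling by library totals. p300 with KLA shows 24.6% lower at TTS peaks against 11.7% in introns, and ERK1 18.6% higher against 11.3%.

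Among the NF-kB regulators the end of Nfkbia, on the minus strand of chr12 about 575 bp past the transcript, was a peak in all 15 tables. NCoR there, at chr12:55488758-55489004, measured 458 and 576 tags per 10 M with Veh and 132 and 129 with KLA. The groups did not overlap, and NCoR fell 3.95-fold (log2 −1.98 ± 0.19 SE, adjusted p = 6.5e-05, edgeR). HDAC3 measured 533 and 465 with Veh and 145 and 214 with KLA, a fall of 2.81-fold (adjusted p = 0.0011, edgeR) that was not called without Veh replicate 1 or 2 (adjusted p up to 0.32). H3K27ac at Nfkbia went the other way, from 115 and 125 to 464 and 429 in the DMSO experiment, a rise of 3.72-fold (adjusted p = 2.7e-18, edgeR). p300 measured 196 and 149 with Veh against 154 and 138 with KLA (adjusted p = 0.23, edgeR) and p65 135 and 166 against 190 and 185 (adjusted p = 0.19, edgeR). Past the end of Tnfaip3, which encodes the deubiquitinase A20, PGC1b in the DMSO experiment rose from 8.12 and 8.74 to 71.1 and 77.4, or 8.73-fold (log2 3.13 ± 0.47, adjusted p = 4.3e-05, edgeR). Over the NF-kB list, p65 rose at 2 of 4 TTS peaks and fell at 0 (all rows 57.0% higher), and NCoR rose at 0 and fell at 1 of 3 (all rows 16.7% lower).

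For cytokine and chemokine genes, p65 rose at 11 of 11 TTS peaks (median log2 3.0), against 57.0% of all rows (1.46). p300 rose at 14 of 19 (2.54), against 42.1% (0.65), HDAC3 at 12 of 15 (4.20), against 27.5% (0.27), and NCoR at 8 of 11 (2.55), against 23.4% (0.10). ERK1 rose at 7 of 11 (3.24), against 10.3% (0.26), and PGC1b at 8 of 15 and, with DMSO, at 14 of 23 (2.84), against 16.4% of all rows in each (0.06 and 0.45). In each of these 0 peaks of the list were called lower. TMM scaling gave 7 for p65 and 6 for ERK1, and 13 higher and 3 lower for p300. With 1 library left out the calls numbered 4 to 10 for p65, 3 to 8 for NCoR and 5 to 7 for ERK1. At Tnf, the inflammatory cytokine, p300 at chr17:35198628-35198887 measured 13.2 and 13.1 with Veh and 171 and 208 with KLA. Every KLA library stood above every Veh library, a rise of 14.3-fold (log2 3.84 ± 0.24, adjusted p = 2.3e-09, edgeR). HDAC3 at Tnf measured 3.64 and 5.53 with Veh and 148 and 212 with KLA, or 37.5-fold (adjusted p = 7.2e-25, edgeR). p65 there measured 7.88 and 15.8 with Veh and 112 and 161 with KLA, or 11.5-fold (adjusted p = 2.6e-05, edgeR). ERK1 measured 14.2 and 2.31 with Veh and 247 and 176 with KLA (log2 4.78 ± 0.55, adjusted p = 0.0036, edgeR), so the corepressor subunits, the acetyltransferase and the kinase all rose at this end. Tnf was also the Fosl2 gain with the lowest p, from 7.05 and 3.15 to 135 and 240 (adjusted p = 4.4e-06, edgeR), which was not called without either Veh library (adjusted p up to 0.34). NCoR at Tnf rested on 3 tags in each Veh library and reached 51 and 76.8 tags per 10 M with KLA (adjusted p = 0.00028, edgeR).

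The enzyme gene Acod1, whose product makes itaconate, had a peak at chr14:103056291-103057688. ERK1 past its end measured 1.57 and 0 with Veh and 172 and 137 with KLA, the ERK1 gain with the lowest p (adjusted p = 0.002, edgeR). p300 at Acod1 measured 3.13 and 2.63 with Veh and 90.5 and 107 with KLA (log2 5.06 ± 0.38, adjusted p = 1.6e-08, edgeR). The baseline of ERK1 was 1 tag in all, so no fold is given for it.

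For interferon-stimulated genes, HDAC3 rose at 10 of 13 TTS peaks and fell at 1 (median log2 4.97), against 27.5% and 11.3% of all rows (0.27). NCoR rose at 8 of 12 and fell at 2 (2.96), against 23.4% and 16.7% (0.10), ERK1 rose at 7 of 8 (5.95), against 10.3% (0.26), and PGC1b with DMSO at 10 of 15 (3.36), against 16.4% (0.45). p65 rose at 5 of 7 and p300 at 3 of 6, nearer to the 57.0% and 42.1% of all rows. With 1 library left out, 3 to 8 NCoR, 4 to 7 ERK1 and 2 to 5 p65 gains were called. The peak whose nearest TSS is that of Mx1, an interferon-induced GTPase, lay at chr16:97445818-97446695, and its transcript end was not placed in the annotation used. PGC1b there measured 7.31 and 18.9 with Veh and 227 and 214 with KLA in the DMSO experiment, a rise of 18.2-fold (log2 4.18 ± 0.34, adjusted p = 1.4e-08, edgeR), with groups far apart. In the other experiment it measured 0 and 0.465 with Veh and 89.6 and 85.8 with KLA (adjusted p = 6.9e-07, edgeR), so the gain was present in both sets of libraries. HDAC3 past the end of Ifit2, which binds viral RNA, measured 0 and 0.553 with Veh and 89.7 and 155 with KLA (adjusted p = 3.7e-27, edgeR). PGC1b past the end of Rsad2, which encodes viperin, measured 3.25 and 4.37 with Veh and 61.2 and 77.4 with KLA (log2 4.18 ± 0.52, adjusted p = 4e-06, edgeR). The peak at the end of Cdhr5, next to Irf7, gained H3K27ac from 37.4 and 41.9 to 422 and 364 with DMSO, or 9.92-fold (adjusted p = 1.8e-40, edgeR), while p300 there measured 91.5 and 84.8 with Veh and 64.5 and 74.6 with KLA and was not called.

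The SOCS and STAT list holds regulators and transducers of cytokine signalling. NCoR rose at 5 of 5 TTS peaks of the list (median log2 3.63), against 23.4% of all rows (0.10), PGC1b with DMSO at 5 of 5 (3.83), against 16.4% (0.45), and p300 at 5 of 6 with 1 lower, against 42.1% and 12.9%. p65 and HDAC3 rose at 3 of 3 each, against 57.0% and 27.5%. With 1 library left out, 1 to 5 NCoR gains and 3 to 5 PGC1b gains were called. At the end of Socs3, p300 rose from 5.01 and 1.31 to 65.5 and 80 (log2 4.47 ± 0.45). ERK1 there measured 1.57 and 0 with Veh and 82.4 and 112 with KLA (adjusted p = 0.0036, edgeR). Past Socs1, next to the NF-kB letters printed above, p65 measured 7.88 and 0 with Veh and 58.1 and 50.6 with KLA (adjusted p = 0.001, edgeR), again without overlap.

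Immediate early genes and ERK feedback regulators split. p300 rose at 2 and fell at 9 of 19 TTS peaks (median log2 −0.76), against 42.1% and 12.9% of all rows (0.65), and at 1 and 11 with TMM. NCoR rose at 2 and fell at 5 of 14 (all rows 23.4% and 16.7%). p65 rose at 6 and fell at 1 of 10 (all rows 57.0% and 5.43%), so it rose about as often as over all rows. TMM scaling reverses the p65 direction (0 higher, 3 lower). At the end of Junb, an AP-1 subunit, p65 measured 106 and 115 with Veh and 387 and 414 with KLA, or 3.63-fold (log2 1.86 ± 0.19, adjusted p = 1.5e-05, edgeR), although with TMM it changed by 0.64 and was not called. Past Zfp36, which encodes the mRNA decay factor tristetraprolin, ERK1 rose 4.88-fold from 28.3 and 20.8 to 124 and 114 (adjusted p = 0.0085, edgeR). At its relative Zfp36l2 p300 went from 45.1 and 90 to 5.12 and 5.94, a fall of 12.1-fold (log2 −3.59 ± 0.44, adjusted p = 3.3e-06, edgeR). H3K27ac at Zfp36l2 fell in step in the DMSO experiment, from 647 and 634 to 124 and 109, or 5.5-fold (adjusted p = 2.8e-30, edgeR). Past Gadd45b p300 rose 8.13-fold, from 12.5 and 12.5 to 92.1 and 112, and H3K27ac from 18.3 and 17.3 to 103 and 116 in NCoR flox/flox cells (log2 2.62 ± 0.24, adjusted p = 2.8e-11, edgeR).

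Of the macrophage lineage list, p300 fell at 11 of 14 TTS peaks and rose at 0 (median log2 −1.91), against 12.9% lower and 42.1% higher of all rows (0.65) and 24.6% lower and 35.0% higher of all TTS peaks (0.23), with 13 lower under TMM and 8 to 11 with 1 library left out. Of the LXR targets and lipid genes it fell at 6 of 7 and rose at 0 (median −2.66), 6 with TMM and 5 to 6 with 1 library left out. Lyz2, which encodes lysozyme, had a peak 713 bp past its end at chr10:117276656-117277001 on the minus strand. p300 there, the strongest TTS peak of its table, measured 570 and 754 with Veh and 75.7 and 70.3 with KLA. The groups did not overlap, and the fall was 9.06-fold (log2 −3.18 ± 0.16, adjusted p = 3.1e-10, edgeR), the p300 loss with the lowest p. HDAC3 at Lyz2 fell from 133 and 180 to 25.2 and 33.4 (log2 −2.46 ± 0.40, adjusted p = 1.5e-08, edgeR). NCoR fell from 66.9 and 74.2 to 12.1 and 18.7 (adjusted p = 0.0014, edgeR) and p65 from 68.3 and 86.7 to 11.4 and 28.7 (adjusted p = 0.0024, edgeR). The p65 call at Lyz2 was lost without KLA replicate 1 (adjusted p = 0.066, edgeR). At the end of Csf1r, the M-CSF receptor, p300 fell from 53.9 and 97.2 to 19.4 and 18.9 (log2 −1.97 ± 0.33). Past Apoe, an LXR target that carries lipid, p300 fell from 38.9 and 26.9 to 11.3 and 5.94 (log2 −1.92 ± 0.46, adjusted p = 0.0018, edgeR). Past Rxra, the partner of nuclear receptors, NCoR fell 4.42-fold from 31.1 and 38.8 to 7.29 and 8.3 (adjusted p = 0.0051, edgeR), a call lost without KLA replicate 1 or 2 (adjusted p up to 0.089).

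**Figure D5:**
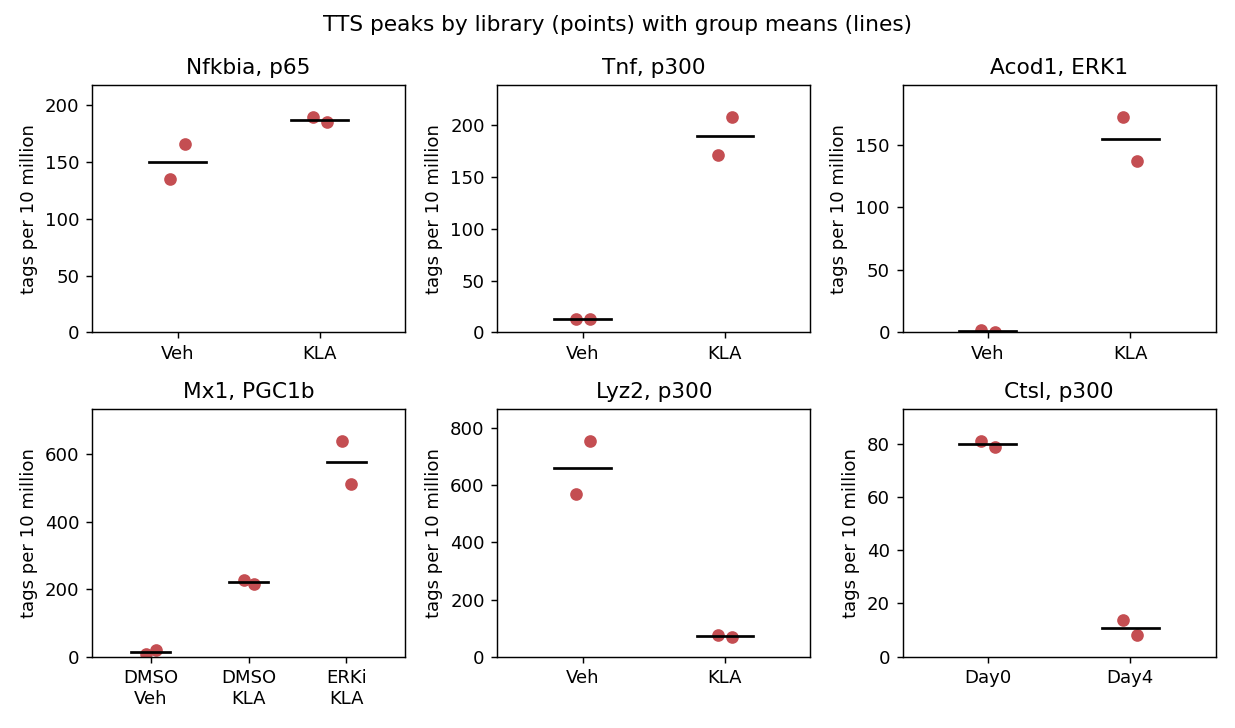
Tags per 10 M in each library (points) and group means (lines) at the ends of Nfkbia (p65), Tnf (p300), Acod1 (ERK1), Mx1 (PGC1b), Lyz2 (p300) and Ctsl (p300, day 0 and day 4). p300 at Tnf rises from 13.2 and 13.1 to 171 and 208 and at Lyz2 falls from 570 and 754 to 75.7 and 70.3, while p65 at Nfkbia stays at 135 to 190.

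Other ends held the changes with the lowest p. NCoR past Hrc, which encodes a calcium-binding protein, rose 11.9-fold from 33.5 and 31.8 to 429 and 352 (log2 3.58 ± 0.23, adjusted p = 2.3e-05, edgeR). At the same end p300 measured 1.88 and 1.31 with Veh and 163 and 153 with KLA (adjusted p = 5.4e-10, edgeR). NCoR past Plekho2 fell 7.74-fold, from 654 and 890 to 93.1 and 106 (adjusted p = 2.7e-05, edgeR), and p300 there fell 4.85-fold from 293 and 234 to 60.4 and 48.1 (adjusted p = 3.9e-08, edgeR).

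Past Prkar2b, a regulatory subunit of protein kinase A, next to Hbp1, p65 rose 21.6-fold from 16.6 and 26.1 to 453 and 471 (adjusted p = 7.8e-07, edgeR) and p300 18.2-fold from 14.4 and 13.1 to 254 and 251 (adjusted p = 3.1e-10, edgeR). At Rcn3, an endoplasmic reticulum protein, HDAC3 fell 18.9-fold from 137 and 133 to 4.69 and 12.3 (log2 −4.24 ± 0.49, adjusted p = 6.1e-16, edgeR). p65 at Rcn3 fell from 70.9 and 75.5 to 15.4 and 6.84 (log2 −2.71), p300 from 70.2 and 72.3 to 9.72 and 10.3 (log2 −2.83) and H3K27ac with DMSO 6.59-fold from 430 and 433 to 66.1 and 64.8 (adjusted p = 6.2e-32, edgeR). Rcn3 therefore lost all 4, and its p65 peak holds the NF-kB letters. At Lrrc27 p65 fell from 32.4 and 46.6 to 2.67 and 2.74 (log2 −3.82 ± 0.60, adjusted p = 0.00026, edgeR).

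PU.1 past Dnajc22, a DNAJ chaperone gene, rose 16.6-fold from 7.76 and 8.09 to 132 and 134 (log2 4.06 ± 0.23, adjusted p = 2.6e-36, edgeR), and p65 there rose from 3.5 and 2.8 to 182 and 224 (log2 5.96 ± 0.38, adjusted p = 9.8e-07, edgeR). PU.1 at Gsg1l fell 2.57-fold from 282 and 299 to 114 and 112 (adjusted p = 4.2e-26, edgeR), and with TMM the change was −0.94 and was not called. PGC1b at Ftl1, the ferritin light chain, fell 2.99-fold from 239 and 208 to 77.5 and 72.1 (log2 −1.58 ± 0.25, adjusted p = 0.00021, edgeR), while ERK1 there measured 178 and 193 with Veh and 182 and 195 with KLA. p300 past Txnip, a regulator of thioredoxin, fell 11.1-fold from 67.1 and 104 to 7.67 and 7.57 (adjusted p = 4.7e-07, edgeR). Fosl2 at Ttll4, a tubulin-modifying enzyme, measured 55 and 29.4 with Veh and 0 in both KLA libraries (adjusted p = 0.00037, edgeR). That call was lost without either Veh library. In the annotation used, the peaks of this locus lay at a median of −2957.5 bp from the transcript end, so before it and outside the TTS window. ERK1 at Gm20619 fell from 77.1 and 38.2 to 9.84 and 6.81 (log2 −2.75 ± 0.62, adjusted p = 0.018, edgeR), a call lost without either KLA library (adjusted p up to 0.084).

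The strongest TTS peaks of NCoR and HDAC3 were not called. NCoR was strongest past Art2a, an ADP-ribosyltransferase gene, with 375 and 391 with Veh and 625 and 562 with KLA (log2 0.63), which was not called. p65 was strongest at the same end and rose there 5.3-fold, from 132 and 76.4 to 553 and 557 (adjusted p = 1.3e-05, edgeR). HDAC3 was strongest past Klf2, at 396 and 352 with Veh and 461 and 767 with KLA (log2 0.71 ± 0.43, adjusted p = 0.18, edgeR).

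At day 4 of osteoclast culture p300 rose at fewer transcript ends than introns. It was higher at 141 and lower at 13 of 270 TTS peaks, or 52.2% and 4.81%, against 71.6% and 0.10% of introns, where 8 of 7962 were lower (all rows 62.5% called, 62.2% higher and 0.248% lower, or 50 lower). The median rise was 1.49 log2 units at TTS peaks and 2.11 in introns, a difference of −0.62 ± 0.08 with library pairs from −0.74 to −0.56. TMM scaling takes 1.56 log2 units off every change and gave 20 higher and 43 lower, with 15.9% of TTS peaks lower against 1.02% of intron peaks. Without day 4 replicate 1 or 2 the calls numbered 32 and 34. Of the TTS peaks, 33 (12.2%) had been found at day 0 alone, against 1.0% of intron peaks, and 74.4% at day 4 alone against 92.4%.

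The 13 lower p300 peaks, listed here after their values were seen, lay at the ends of Ctsl, Mmachc and Fth1 (2 peaks each), and of Lilr4b, Mmp12, Spp1, Creg1, H3f3b, Prdx1 and Rhob. Ctsl encodes the protease cathepsin L, Fth1 the ferritin heavy chain, Mmp12 macrophage elastase and Spp1 osteopontin. None of the 94 ends of transcripts of 20 kb or more was lower, against 4 of 51 under 5 kb and 9 of 124 from 5 to 20 kb. At Ctsl, chr13:64361357-64361814 on the minus strand, p300 measured 80.9 and 78.8 at day 0 and 13.7 and 7.94 at day 4. Both day 4 libraries lay below both day 0 libraries, a fall of 7.23-fold (log2 −2.85 ± 0.50, adjusted p = 0.00081, edgeR) that was still called with any 1 of the 4 libraries left out (adjusted p up to 0.023). p300 at Ctsl was also lower with KLA, from 16.9 and 17.7 to 2.05 and 1.08 (log2 −3.40 ± 0.64, adjusted p = 0.00023, edgeR).

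Of the osteoclast list, 2 of 2 tested p300 peaks rose at day 4 (median log2 4.02), where 62.2% of all rows were higher, 1 of them with TMM. At the end of Acp5, which encodes the osteoclast phosphatase TRAP, p300 measured 9.67 and 10.6 at day 0 and 48.9 and 54.4 at day 4. The groups did not overlap, and the rise was 5.09-fold (log2 2.35 ± 0.57, adjusted p = 0.0044, edgeR), but with TMM it was 0.79 (adjusted p = 0.41) and it was not called without day 4 replicate 1 or 2 (adjusted p up to 0.15). At Mmp9, the osteoclast gelatinase, p300 measured 0 and 2.13 at day 0 and 41.1 and 39.7 at day 4 (adjusted p = 0.00099, edgeR), a call lost without either day 4 library (adjusted p up to 0.072). Pheta1 was the gain with the lowest p, at 0 in both day 0 libraries and 90 and 82.8 at day 4 (adjusted p = 0.00011, edgeR). At Lyz2 p300 measured 175 and 149 at day 0 and 71.4 and 107 at day 4 (log2 −0.88, adjusted p = 0.032, edgeR), a fold under 2.

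ERK1 at day 4 was higher at 5 and lower at 0 of 226 TTS peaks (all rows 2.35% called, 2.33% higher and 0.0267% lower), with 72 TTS peaks at an unadjusted p below 0.05. Of the 226, 66.8% were found at day 4 alone and 14.2% at day 0 alone. The 5, named after their values were seen, lay at Nr1h4, Ift43, Procr, Actg1 and Mmachc. The edgeR count was 18 without day 0 replicate 1, 21 without day 0 replicate 2 and 0 without either day 4 library, and both TMM and DESeq2 gave 0. At Nr1h4, the bile acid receptor FXR, ERK1 measured 1.72 and 1.05 at day 0 and 43.6 and 21.5 at day 4 (adjusted p = 0.03, edgeR; up to 0.41 without a day 4 library). ERK1 at Ftl1, its strongest TTS peak, measured 99 and 116 at day 0 and 313 and 228 at day 4 (log2 1.33 ± 0.40, adjusted p = 0.064, edgeR), with no overlap but no call.

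With the ERK inhibitor and KLA, NCoR tags at transcript ends were below those with KLA alone about as often as over all rows, when scaled by library totals. NCoR was higher at 5 and lower at 300 of 654 TTS peaks (all rows 49.2% called, 0.634% higher and 48.6% lower), with a median 0.09 ± 0.02 above that of introns. The reference is the KLA samples of the comparison with vehicle, and NCoR was not profiled with DMSO and KLA. An effect of the inhibitor therefore cannot be told apart from that of solvent or of a separate experiment. TMM scaling raises every change by 1.16 and gave 20 higher and 21 lower, so nearly all of these losses are losses relative to the library total. Without KLA replicate 1 or 2 the calls numbered 149 and 152. At Nfkbia NCoR measured 135 and 130 with KLA and 52.4 and 37.1 with ERKi (log2 −1.56 ± 0.23, adjusted p = 0.00022, edgeR), and with TMM the change was −0.40 and not called. Gm15413 was the loss with the lowest p, from 169 and 161 to 30.4 and 23.3, or 6.13-fold (adjusted p = 4.5e-05, edgeR), and it was also called with TMM. NCoR past Cox17, a copper chaperone gene, went from 17 and 11.8 to 50.7 and 35.3 (log2 1.58 ± 0.51, adjusted p = 0.018, edgeR) and was not called when KLA replicate 1, KLA replicate 2 or ERKi replicate 1 was left out (adjusted p up to 0.17).

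PGC1b with ERKi was higher at 8 and lower at 0 of 865 TTS peaks (all rows 0.286% called, 0.108% higher and 0.178% lower), where all rows held 58 higher and 95 lower of 53474 and the introns 20 and 47. At an unadjusted p below 0.05 there were 143 TTS peaks, DESeq2 called 21 higher and 2 lower, and TMM 11 and 0. The edgeR count was 1 without DMSO KLA replicate 2 and 0 without any 1 of the other 3 libraries. The 8, named after their values were seen, lay at or near Cxcl1, Ccl5, Ccl4, Mx1, Tmprss2 (next to Mx2), Cdkn1a, Cited2 and Rhob, of which the first 3 encode chemokines and Mx1 and Mx2 are interferon-stimulated. The median was 0.13 ± 0.02 above that of introns. At Cxcl1 PGC1b measured 1.97 and 5.95 with DMSO and KLA and 75.1 and 127 with ERKi (log2 4.54 ± 0.74, adjusted p = 0.012, edgeR; up to 0.12 with 1 library left out). At Mx1 it measured 227 and 214 and rose to 638 and 513, or 2.61-fold (log2 1.38 ± 0.26, adjusted p = 0.022, edgeR; up to 0.18 with 1 library left out). Rsad2 measured 61.2 and 77.4 and then 230 and 175 (adjusted p = 0.059, edgeR), Cxcl10 43.4 and 96.8 and then 233 and 208 (adjusted p = 0.079, edgeR) and Tnf 197 and 118 and then 363 and 336 (adjusted p = 0.14, edgeR). At these 3 ends both ERKi libraries lay above both DMSO libraries and none was called.

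RGFP966 with KLA raised H3K27ac at transcript ends compared with DMSO and KLA. It was higher at 63 and lower at 1 of 208 TTS peaks (all rows 36.5% called, 26.9% higher and 9.53% lower). These shares, 30.3% higher and 0.48% lower, stood beside 37.8% and 0.42% of introns. The TTS median was 0.11 below that of introns (−0.11 ± 0.02). At Crip1, a LIM-domain protein gene, H3K27ac measured 50.5 and 36.2 with DMSO and KLA and 222 and 192 with RGFP966, or 4.71-fold (log2 2.24 ± 0.24, adjusted p = 2e-18, edgeR). Its DMSO vehicle libraries measured 300 and 279, so the RGFP966 level stood between both. Rcn3 measured 66.1 and 64.8 with DMSO and KLA and 115 and 103 with RGFP966. The loss was at Slc26a1, a sulfate transporter gene, from 287 and 192 to 127 and 112 (log2 −1.01 ± 0.21, adjusted p = 7e-06, edgeR), close to the limit of a 2-fold change and not called without DMSO KLA replicate 1 or RGFP966 replicate 2. At Nfkbia H3K27ac measured 464 and 429 with DMSO and KLA and 357 and 266 with RGFP966 (log2 −0.52, adjusted p = 0.013, edgeR), a change under 2-fold.

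With Pgc1b deleted, H3K27ac at the ends of Hcar2 and Spef1l moved in the same direction as in the flox controls. At Hcar2, the niacin receptor, H3K27ac rose 4.16-fold in PGC1b flox/flox cells, from 61.7 and 98.4 to 349 and 306, and 3.68-fold in PGC1b flox/flox, LysMCre cells, from 73.6 and 66.3 to 272 and 244 (adjusted p = 6.4e-38, edgeR). At Spef1l it went from 690 and 720 to 359 and 344 in flox controls, a fall called only with KLA replicate 2 and Veh replicate 2 present (log2 up to −0.97 without 1 of them) and not with TMM, and fell 4.77-fold, from 671 and 594 to 137 and 128, with LysMCre (log2 −2.25 ± 0.09, adjusted p = 7.5e-115, edgeR). At Cttnbp2nl in NKO cells it fell from 88.5 and 88.8 to 25.5 and 22.2 (log2 −1.88 ± 0.27). At Ndufa8 it measured 18.9 and 12.7 with Veh and 0 in both KLA libraries of NCoR flox/flox cells. The differences between genotypes at these ends were not tested.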

How the data were processed

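ChIP-seq was performed in 100 samples, of which 30 are inputs. The authors aligned reads to mm10 with Bowtie2, called peaks with HOMER against input, kept reproducible peaks by irreproducible discovery rate, merged the peaks of the compared conditions and counted tags in each row. H3K27ac was counted over regions taken from ATAC-seq or factor peaks rather than its own peaks. The deposited values are these raw tag counts, with the HOMER annotation of each row, which assigns a TTS from 100 bp before to 1000 bp after a transcript end. Tool versions are not given in the sources used here. All libraries of a table are counted over the same regions, and for H3K27ac the table with Pgc1b deletion and that with RGFP966 share theirs, about 1000 bp wide. Inputs were not used here, as the tables hold no input column.

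Counts were scaled by the library totals in the table headers and tested with the quasi-likelihood test of edgeR 4.0.16 (R 4.3.3) over all rows with at least 4 tags (16 for H3K27ac) in at least 1 library. A call needed a Benjamini-Hochberg adjusted p below 0.05 and a fold above 2. No replicate number was used as a block. The correlation of the deviations of same-numbered libraries was between −0.03 and 0.03 in the 19 comparisons, so the numbers did not pair the libraries. Replicates differed beyond counting noise (chi-square per row 1.31 to 3.96) and none were identical. Tags between library pairs were compared as log2 with a pseudocount of 0.5 tags. On simulated counts for p300 with KLA (67998 rows, 200 changed 4-fold), the test recovered 84.5% with 7 false calls and DESeq2 67.5%. DESeq2 1.42.0, TMM scaling, no filter, a replicate block, each library left out, introns at any distance and intergenic rows were the alternatives. Rows were placed with the RefSeq annotation of GRCm38.p6 through Python 3.11.15, pandas 2.3.3, numpy 2.4.6 and pysam 0.24.0, and plots drawn with matplotlib 3.10.9. On 21 chromosomes 0 rows passed the end, and 336 rows lay on other sequences.

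Named are, in each comparison, the called TTS peak with the lowest p in each direction, in each table the strongest, the 10 loci held by the most tables, and up to 4 loci of each gene list. The members and lists were chosen with earlier results of these data known.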

Additional observations from a re-analysis of the deposited data

Results flagged for a closer look

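In the H3K27ac tables, 7 results moved one way in every library pair of one genotype and the opposite way in every pair of the other. These signs came from tags scaled by library totals. None of these differences was tested. Only the median over TTS peaks and the named loci were searched, and the share of all rows that meet this rule was not counted. The median log2 change with KLA over TTS peaks was between 0.07 and 0.26 in the 4 pairs of NCoR flox/flox cells and between −0.28 and −0.10 in those of NKO cells, a difference of 0.33, while the medians over all rows were 0.13 and −0.20. At the end of Rin2 the same genotypes differed by 0.97 (0.39 to 0.74 against −0.73 to −0.07).

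Between PGC1b flox/flox and PGC1b flox/flox, LysMCre cells, the fitted changes differed by 0.81 at 4930589L23Rik (0.32 to 0.61 against −0.56 to −0.14), by 0.51 at Fhl3 (0.05 to 0.34 against −0.53 to −0.09) and by 0.60 at Rps9 (0.15 to 0.33 against −0.50 to −0.21). At Klf6 both H3K27ac peaks did so, by 0.42 (0.19 to 0.40 against −0.13 to −0.12) and by 0.44 (0.01 to 0.22 against −0.35 to −0.29). Over all rows the medians were −0.45 in PGC1b flox/flox cells and −0.62 with LysMCre. TMM scaling shifts the 2 genotypes by different amounts (0.43 and 0.61 for PGC1b, −0.13 and 0.20 for NCoR). The 0.61 is larger than every fall given here for PGC1b flox/flox, LysMCre cells, so those opposite signs depend on scaling by library totals. With TMM the median over TTS peaks was −0.006 in NCoR flox/flox cells and 0.02 in NKO cells.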

How the results depend on the processing

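With 2 libraries a group, 1 library moves many counts of calls, and where an arm was left with 1 library it was assumed to vary like the others. TMM scaling shifts all changes of a comparison by the same amount, from −1.56 (p300 at day 4) to 1.16 (NCoR with ERKi), so calls and directions of single peaks depend on the scaling, while differences between TTS and intron medians hardly do. Over all alternatives 265 values stayed within the spread or within 1.5 times the count, and 103 moved. Some small median differences, such as that of ERK1 at day 4, changed sign. The cause of each move was not tested. Depth limits peaks with few tags in 1 group.

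Against intergenic rows, the strength difference (log2) became −0.024 for ERK1 at day 0 and day 4, 0.51 for H3K27ac in the Pgc1b table, 0.43 with RGFP966, −0.094 for HDAC3, −0.061 for NCoR with ERKi, −0.053 for NCoR and −0.027 for PGC1b with DMSO and ERKi. Against introns at any distance it became −0.22, −0.20 and −0.013 for H3K27ac in the Pgc1b, RGFP966 and WT/NKO tables. The median difference in change against intergenic rows became −0.12 for NCoR, −0.11 for HDAC3, −0.44 for p65, −0.17 for Fosl2, 0.11 for PU.1, −0.010 for PGC1b with DMSO, −0.76 for p300 with KLA and −0.53 at day 4, 0.12, 0.20 and −0.23 for H3K27ac in WT, in Pgc1b flox cells and with RGFP966, 0.065 for NCoR with ERKi and 0.074 for PGC1b with ERKi. Against introns at any distance it became −0.084 for HDAC3, −0.16 for p65, −0.52 for p300 with KLA, and 0.041, 0.058 and −0.025 for H3K27ac with DMSO, in Pgc1b flox cells and with RGFP966. For HDAC3 it was −0.071 with TMM and −0.086 with the replicate block, and for H3K27ac with DMSO 0.19 with no filter.

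DESeq2 called 130 TTS peaks for Fosl2, 0 for ERK1 at day 4, 39 for p300 at day 4, 44 for H3K27ac in Pgc1b flox Cre cells, 59 for NCoR with ERKi and 23 for PGC1b with ERKi. TMM gave 120, 0, 63, 46 and 41 for the first 5 of these. The replicate block gave 13 for Fosl2 and 4 for PGC1b with ERKi, and the replicate numbers did not pair the libraries.

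With each library left out in turn, counts ran from 33 to 84 for ERK1 with KLA, 0 to 21 for ERK1 at day 4, 0 to 160 for Fosl2, 7 to 19 for H3K27ac in NKO and 10 to 21 in WT cells, 96 to 260 for HDAC3, 149 to 285 for NCoR with ERKi, 122 to 326 for NCoR, 0 to 1 for PGC1b with ERKi, 72 to 238 for PGC1b, 79 to 123 for PGC1b with DMSO, 32 to 179 for p300 at day 4 and 178 to 389 for p65. The median differences ran from 0.11 to 0.28 for ERK1 with KLA, −0.10 to 0.12 for ERK1 at day 4, −0.18 to −0.062 for Fosl2, 0.081 to 0.19 for H3K27ac with DMSO, 0.055 to 0.26 in NKO, −0.022 to 0.11 in WT and 0.054 to 0.17 in Pgc1b flox cells, −0.15 to −0.10 with RGFP966, −0.079 to −0.063 for HDAC3, 0.071 to 0.12 for NCoR with ERKi, −0.090 to −0.056 for NCoR, 0.13 to 0.17 for PGC1b with ERKi, −0.076 to −0.035 for PGC1b with DMSO, 0.11 to 0.12 for PU.1, −0.77 to −0.59 for p300 at day 4 and −0.26 to −0.17 for p65.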
